A study of Rattus norvegicus with 172 samples.

Results

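The genes described here carry out cell division. The list held 40 rat genes chosen by name, from cyclin D1 (Ccnd1), which acts before DNA is copied, to Ect2, which acts when the daughter cells part. Of these, 37 could be tested on the array among 14217 genes in all. Anln and Rrm2 were carried only by 3 probe sets that also bear the symbol of another gene, and Tpx2 had no probe set with its symbol, so these 3 members have no value. By role, 11 of the tested members act before or during DNA replication and are called replication genes below, and 26 act in or around mitosis and are called mitosis genes.

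RNA came from granule cells of the dentate gyrus, cut by laser from 10 µm frozen sections through the hippocampus of male Sprague-Dawley rats of 175 to 250 g, with an RNA integrity number above 7 and at least 10 ng pooled per rat. The 164 rats fell into 28 groups of 4 epilepsy models run by 7 laboratories, and each laboratory had its own controls. Ages are not in the labels. In the pilocarpine model (laboratories A and B, 48 rats) rats received 1 mg/kg methylscopolamine, a peripheral muscarinic blocker, and then 300 to 350 mg/kg of the muscarinic agonist pilocarpine. Status epilepticus (SE), a seizure state that goes on for long, was ended with 25 mg/kg pentobarbital after 90 min. Pilocarpine controls received methylscopolamine and saline. In the kainate model (laboratories A and B, 48 rats) the glutamate receptor agonist kainate was injected at 5 mg/kg each hour until SE began, and controls received saline. In laboratory A the seizures ran until they ceased, 6 to 8 h later. In laboratory B the first dose was 7.5 mg/kg and SE was cut off at 90 min. The model named self-sustaining status epilepticus (SSSE) was run by 1 laboratory, with 6 rats at day 1, 5 at day 3, 4 at day 10 and 5 controls. In all 3 SE models tissue was collected 1, 3 or 10 days after SE. Kindling, in which repeated stimulation brings on stronger and stronger seizures, came from laboratories A and B (48 rats), which took rats at seizure stage 2, 4 or 5. All groups outside SSSE held 6 rats. How SSSE and kindling were induced, and what their controls received, is not given in the sources used here. The labels of 2 rats contradict themselves. Rat 3 of SSSE day 1 is a day 1 rat by its title and a control by its other fields. Rat 4 of kindling laboratory A stage 2 carries kainate as its model, together with a kindling laboratory and a kindling stage. Both were used in the groups just named. Without them no member was called in SSSE at day 1 and both members called at kindling stage 5 were called again.

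A cell that divides first commits to the cycle through D-type cyclins, which release E2F transcription factors from the retinoblastoma protein. E2F factors then switch on the genes that copy DNA, among them the Mcm helicase subunits, the sliding clamp Pcna and the enzymes that make nucleotides. Later the kinase Cdk1 with cyclins A and B drives mitosis, and the spindle, checkpoint and cytokinesis genes follow in a wave of their own. Granule cells are neurons that no longer divide. At the inner edge of the granule cell layer of adult rodents lies the subgranular zone, whose stem and progenitor cells do divide, and microglia, astrocytes and oligodendrocyte precursors of the same tissue can divide too. A laser cut of the layer takes whatever cells lie in it.

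Both waves are known to be timed in part through short promoter motifs. Of these, 3 were searched on both strands in the 250 bases before and the 50 bases after each gene's start, for the 31 tested members with an entry in RefSeq (build GRCr8). The motifs were the E2F site (TTCCCGC or TTGGCGC, or TTCGCGC or TTGCCGC), the CCAAT box (CCAAT), and the cell cycle homology region or CHR (TTTGAA or TTTAAA), to which the complexes that time late cell cycle genes bind. Matches of different motifs may overlap. E2F letters stood in 7 of 9 promoters of replication genes, or 77.8%, in 4 of 23 promoters of mitosis genes, or 17.4%, and in 9.52% of all 33469 rat promoters. CHR letters stood in 2 of 9 promoters of replication genes, or 22.2%, in 20 of 23 promoters of mitosis genes, or 87%, and in 28.3% of all. The CCAAT box was in 66.7% of the replication and 73.9% of the mitosis promoters, and in 37.5% of all. A match is a match of letters and not a bound site. The 150 bases before the start follow for 7 members on which the results turn, 2 that were higher at day 1 and 5 that were higher at day 3 after pilocarpine. They run 5′ to 3′ on the strand of the gene, with matches to any of the 3 motifs, on either strand, in capitals. In order they lie at chr4:122918095-122918244 (minus strand), chr12:22163179-22163328 (minus), chr20:19265143-19265292 (plus), chr1:199952594-199952743 (minus), chr3:127057145-127057294 (plus), chr1:143659331-143659480 (plus) and chr8:79981659-79981808 (minus) of GRCr8.
Mcm2: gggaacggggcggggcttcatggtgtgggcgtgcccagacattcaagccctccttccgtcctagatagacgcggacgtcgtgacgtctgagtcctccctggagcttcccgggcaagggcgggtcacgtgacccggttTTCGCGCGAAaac
Mcm7: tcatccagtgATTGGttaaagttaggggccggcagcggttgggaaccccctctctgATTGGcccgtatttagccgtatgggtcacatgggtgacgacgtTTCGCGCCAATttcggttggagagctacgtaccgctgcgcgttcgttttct
Cdk1: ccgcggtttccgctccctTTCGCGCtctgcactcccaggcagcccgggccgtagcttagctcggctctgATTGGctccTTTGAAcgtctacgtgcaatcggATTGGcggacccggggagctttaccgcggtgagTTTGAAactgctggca
Mki67: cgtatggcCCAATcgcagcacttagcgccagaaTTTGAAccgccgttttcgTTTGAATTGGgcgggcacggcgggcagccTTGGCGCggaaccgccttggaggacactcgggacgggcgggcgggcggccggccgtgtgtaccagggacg
Nusap1: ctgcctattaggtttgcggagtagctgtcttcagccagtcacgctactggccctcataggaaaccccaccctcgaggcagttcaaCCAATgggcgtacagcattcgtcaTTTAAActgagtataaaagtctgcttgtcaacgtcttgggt
Prc1: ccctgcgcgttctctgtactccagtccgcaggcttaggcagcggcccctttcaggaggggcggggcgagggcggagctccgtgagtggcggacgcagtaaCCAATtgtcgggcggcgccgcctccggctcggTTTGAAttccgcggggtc
Ccnb2: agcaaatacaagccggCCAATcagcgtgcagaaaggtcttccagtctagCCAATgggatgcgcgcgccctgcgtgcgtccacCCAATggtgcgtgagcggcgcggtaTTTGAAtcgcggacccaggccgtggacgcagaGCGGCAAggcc
In these windows the capitals of Mcm2 are overlapping E2F matches alone, while Nusap1 and Prc1 hold a CCAAT box and a CHR and no E2F match. Cdk1, Mki67 and Ccnb2 hold all 3 motifs, and in Mcm7 an E2F match runs into a CCAAT box.

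The members were dim in these cells. Signals are the linear intensity units of the MAS5 program, in which the median probe set of an array lay between 27.99 and 54.2. Only 7 of the 37 members lay above the median of their own array in more than 20 of the 41 controls, and 14 members, all mitosis genes, lay above it in no control. Of the 37, 26 lay above it in at least 6 rats of the study, namely 10 of the 11 replication and 16 of the 26 mitosis genes. No such filter was used in the tests, so all 37 were tested in every comparison. All 11 markers of granule cells, among them Prox1 and Calb1, lay above the array median in more than 20 of the controls, and so did 9 of 11 markers of astrocytes and 6 of 18 markers of microglia and macrophages. A change is the difference in mean log2(signal + 16) between a group and its own laboratory's controls, as the mean of the laboratories, with its standard error. The added 16 makes the change of a dim gene smaller than that of its raw signal. A gene is called when its Benjamini-Hochberg adjusted p in limma, over all 14217 genes, is under 0.05. Since each sample pools the cells of a cut layer, more cells of a dividing type and more RNA per cell cannot be told apart.

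After pilocarpine replication genes rose at day 1 and at day 3, and mitosis genes rose at day 3. At day 1, 5 of 37 (13.5%) members were called higher, where 11.9% of all genes were, and 1 was called lower, where 12.1% of all genes were. Over all members the day 1 share was thus close to that of all genes. By class, all 5 that rose are among the 11 replication genes, and the gene that fell is among the 26 mitosis genes. This split is that of the mean of both laboratories, in classes set with earlier results of these data known. Taken alone, laboratory A had 3 replication genes called higher and 1 mitosis gene called lower by limma. Laboratory B had 3 replication and 2 mitosis genes called higher and 0 lower, so the split was not seen there. A second list of cell cycle genes, given below, does not share the split. There the motor Kif22 and the kinetochore protein Spc25 rose most at day 1, while the replication genes Pola1, Rfc5 and Cdc45 fell. At day 3, 24 of 37 members were called higher, 5 replication and 19 mitosis genes, where 5.69% of all genes were. None was called lower by limma, also at an unadjusted p under 0.05, where 2.86% of all genes were called lower. The median log2 change of the members was 0.15 at day 1 and 0.56 at day 3, while that of all genes was 0.00 at both. Each comparison set 12 treated rats against the same 12 controls.

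**Figure D1:**
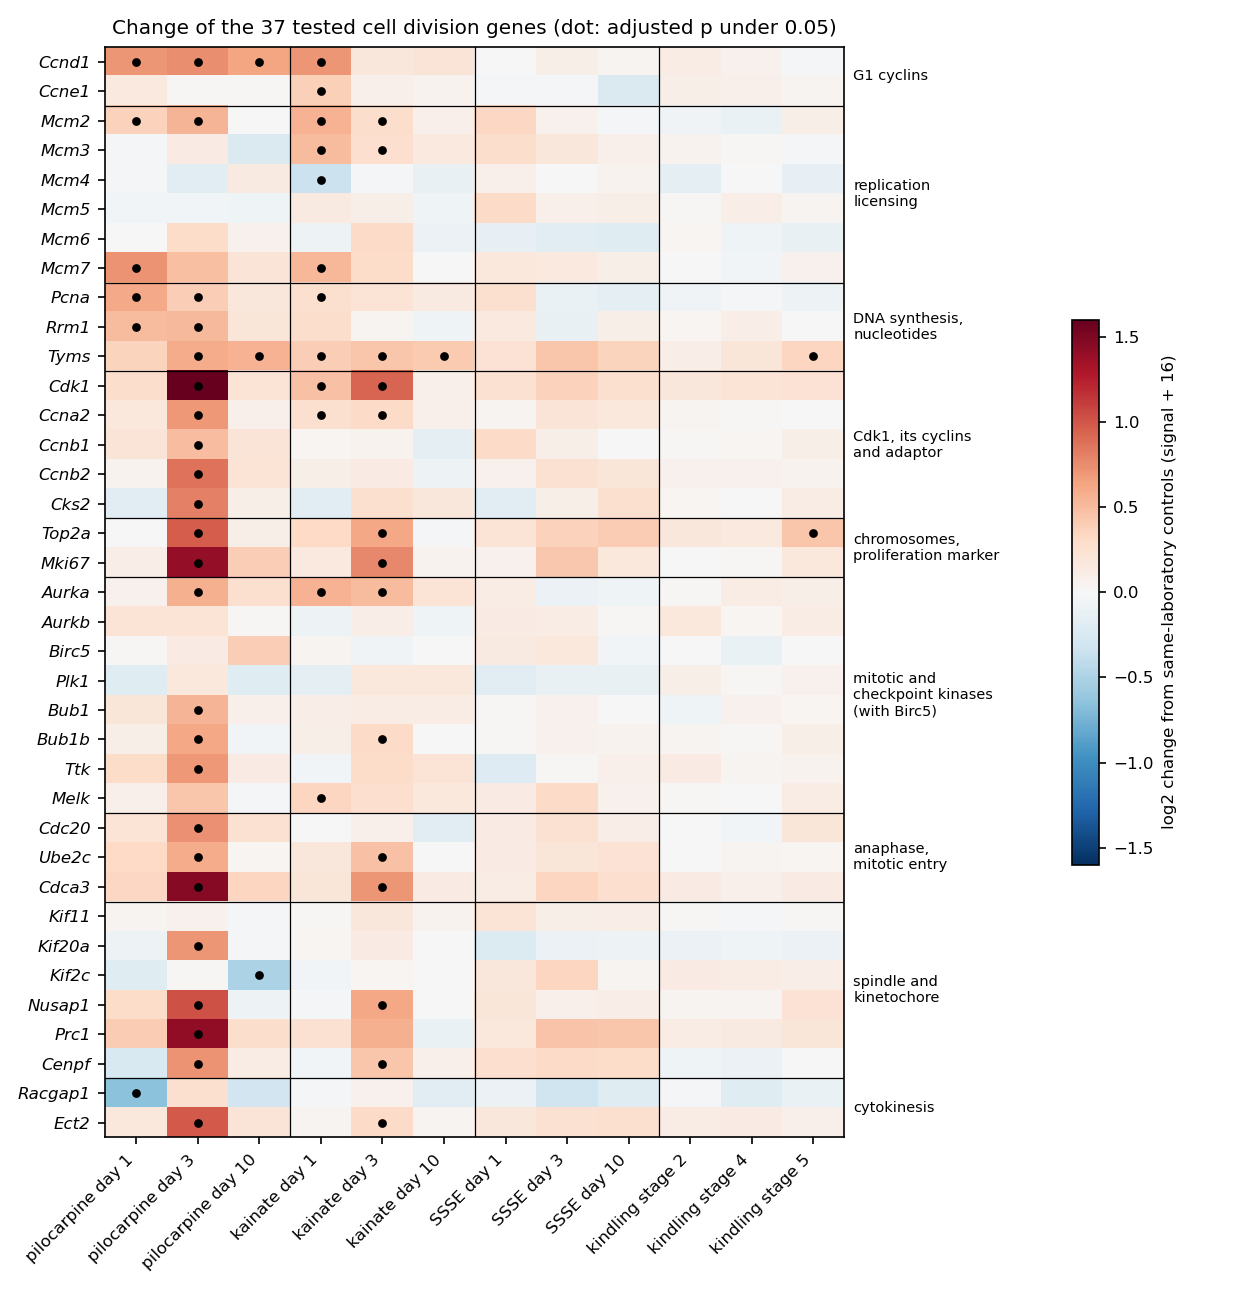
Log2 change from same-laboratory controls of the 37 tested genes (rows, grouped by role) in the 12 comparisons (columns). Colour gives the log2 change of signal + 16, and a dot marks an adjusted p under 0.05 in limma. In the pilocarpine day 3 column 24 genes carry a dot, and in the 3 SSSE columns none does.

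Of the 5 replication genes raised 1 day after pilocarpine, Mcm7, a subunit of the helicase that opens DNA ahead of the copying machinery, had signals of 91.5 to 376 (median 259) in treated rats of laboratory A, against 137 to 180.4 (median 159.6) in its controls. In laboratory B it had 218 to 384 (median 293) in treated rats, against 124 to 181 (median 139) in controls. In B the groups did not overlap, and in A 1 treated rat lay below the controls. The log2 change was 0.72 ± 0.16, adjusted p = 0.00062. Pcna, the ring that clamps the polymerase to DNA, had 737 to 1115 (median 924) in treated rats of laboratory A, against 452 to 691 (median 540.2) in controls, and 662 to 923 (median 878) in treated rats of laboratory B, against 483 to 617 (median 563) in controls. All 12 treated rats lay above the controls of their laboratory, with a log2 change of 0.61 ± 0.12, adjusted p = 9.0e-05. Cyclin D1 (Ccnd1) had 18.1 to 40.6 (median 29.1) in treated rats of laboratory A, against 4.46 to 23.7 (median 8.04) in controls. Laboratory B gave 7.76 to 34.9 (median 20.2) in treated rats, against 2.68 to 24.7 (median 3.53) in controls. Its groups overlapped in both laboratories, and its change was 0.70 ± 0.15, adjusted p = 0.00047. The other 2 were Rrm1, the large subunit of the enzyme that makes deoxynucleotides, at 0.50 ± 0.13, adjusted p = 0.0037, and the helicase subunit Mcm2 at 0.37 ± 0.11, adjusted p = 0.015. Taking only the first array of the 5 twice-measured controls of laboratory A left Mcm2 at an adjusted p of 0.11. The remaining replication genes, including Mcm3 to Mcm6, were not called, with log2 changes between -0.05 for Mcm5 and 0.36 for Tyms. In Mcm3 to Mcm6 the mean of both laboratories joins changes of opposite sign. Mcm3 and Mcm5 were lower than control in laboratory A and higher in B, and Mcm4 and Mcm6 the reverse. No difference between the laboratories was called by limma.

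The gene that fell at day 1 was Racgap1, part of the complex that organises the dividing cell's midzone. It had 3.33 to 28.2 (median 12.6) in treated rats of laboratory A, against 25.04 to 47.97 (median 43.7) in controls, and 3.17 to 27.04 (median 19.3) in treated rats of laboratory B, against 19.6 to 31.5 (median 25.4) in controls. Of the 12 treated rats, 8 lay below the controls of their laboratory, and the change was -0.66 ± 0.15, adjusted p = 0.00070. A dimmer second probe set of Racgap1 had -0.19 ± 0.15 and was not called. Mki67, whose protein Ki-67 marks cycling cells, was not called at day 1 (0.11 ± 0.17, adjusted p = 0.71), and neither was Cdk1 (0.28 ± 0.17, adjusted p = 0.26).

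Among the mitosis genes raised at day 3, Cdk1, the kinase that drives entry into mitosis, had the largest change. Its signal was 46.3 to 164 (median 67.7) in treated rats of laboratory A, against 0.685 to 24.97 (median 3.34) in controls. In laboratory B it was 33.9 to 75.6 (median 49.8) in treated rats, against 5.27 to 19.2 (median 11.8) in controls. The groups did not overlap in either laboratory, and the log2 change was 1.62 ± 0.17, adjusted p = 3.2e-09. Cdca3, a trigger of mitotic entry that helps to degrade the kinase Wee1, had 66.2 to 237 (median 124) in treated rats of laboratory A, against 28.7 to 60.9 (median 39.9) in controls. For laboratory B the signals were 78.2 to 131 (median 95.6) in treated rats, against 17.6 to 37.4 (median 23.8) in controls. Again all 12 treated rats lay above their controls (1.45 ± 0.14, adjusted p = 7.6e-10). Mki67 had 44.6 to 159.5 (median 80.8) in treated rats of laboratory A, against 4.08 to 35.9 (median 11.6) in controls, and 28.4 to 60.7 (median 42.6) in treated rats of laboratory B, against 1.81 to 20.5 (median 10.9) in controls. Its groups did not overlap either, and its change was 1.41 ± 0.17, adjusted p = 1.1e-07. Prc1, which bundles microtubules in the midzone of the spindle, had 44.7 to 160.4 (median 76.9) in treated rats of laboratory A, against 4.93 to 67.6 (median 18.3) in controls. In laboratory B it had 33.8 to 75.3 (median 59.5) in treated rats, against 2.17 to 27.5 (median 9.78) in controls. With 10 of 12 treated rats above their controls, the change was 1.41 ± 0.23, adjusted p = 1.9e-05. The microtubule-binding protein Nusap1 followed at 1.02 ± 0.15, adjusted p = 5.0e-06, with 11 of 12 rats above their controls.

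By role, the day 3 calls after pilocarpine covered all 5 of the Cdk1 group, where cyclin B2 (Ccnb2) had 0.87 ± 0.15, the Cdk1-binding adaptor Cks2 0.81 ± 0.17, cyclin A2 (Ccna2) 0.70 ± 0.14 and cyclin B1 (Ccnb1) 0.50 ± 0.11. The topoisomerase Top2a, which untangles chromosomes, had 49.1 to 134 (median 69.2) in treated rats of laboratory A, against 12.2 to 44.01 (median 33.1) in controls. In laboratory B it had 22.4 to 84.9 (median 33.7) in treated rats, against 6.80 to 28.05 (median 13.3) in controls, with overlap. Its change over both laboratories was 0.97 ± 0.21, adjusted p = 0.0013. Of the 8 kinases and checkpoint genes, 4 were called higher, namely the spindle kinase Aurka and the checkpoint kinases Bub1, Bub1b and Ttk, at 0.55 for Bub1 to 0.69 for Ttk. Aurkb, its partner Birc5, Plk1 and Melk were not called, with changes of 0.22 ± 0.15, 0.13 ± 0.17, 0.16 ± 0.22 and 0.44 ± 0.15 in that order. All 3 genes of mitotic entry and exit were called, Cdca3 together with Cdc20, which activates the ubiquitin ligase that ends mitosis (0.73 ± 0.17), and its partner Ube2c (0.60 ± 0.17). Of the 6 spindle genes 4 were called, with the motor protein Kif20a at 0.71 ± 0.18 and the kinetochore protein Cenpf at 0.72 ± 0.17 beside Prc1 and Nusap1. The motors Kif11 and Kif2c had 0.07 ± 0.10 and 0.02 ± 0.15 and were not called. Ect2, which tells the cell where to pinch, was called (0.98 ± 0.14, adjusted p = 3.9e-06, with all 12 treated rats above their controls), and Racgap1 was not (0.25 ± 0.15).

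The replication genes called higher at day 3 were cyclin D1 (0.74 ± 0.15, adjusted p = 0.00090), thymidylate synthase or Tyms, which makes the DNA letter T (0.60 ± 0.14, adjusted p = 0.0033), Mcm2 (0.54 ± 0.11, adjusted p = 0.0011), Rrm1 (0.52 ± 0.13, adjusted p = 0.0080) and Pcna (0.39 ± 0.12, adjusted p = 0.025). Mcm7 had 0.48 ± 0.16, adjusted p = 0.051 and was not called. The step between the days was tested within the same fit. Of the 37 members, 17 were called higher at day 3 than at day 1, where 10.3% of all genes were. All 17 are mitosis genes, with the largest steps in Cdk1 (1.34 ± 0.17, adjusted p = 5.7e-07), Mki67 (1.30 ± 0.17) and Cdca3 (1.12 ± 0.14). None was called lower by limma, also at an unadjusted p under 0.05, where 6.6% of all genes were called lower. Racgap1 was among those that rose between the days (0.91 ± 0.15, adjusted p = 3.1e-05), although its second probe set had -0.19 at both days.

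By day 10 after pilocarpine fewer members were called than at day 3, but replication genes of laboratory B stayed mostly above their controls. The mean over the 11 replication genes was 0.07 to 0.42 there, against -0.13 to 0.11 in controls. In laboratory A it was -0.10 to 0.37, against -0.11 to 0.13. Pcna, not called, had 586 to 1048 in laboratory B, against 483 to 617 in controls, and 324 to 704 in laboratory A, against 452 to 691. After pilocarpine 2 members were called higher at day 10, where 2.5% of all genes were. They were cyclin D1 (0.63 ± 0.15, adjusted p = 0.0081) and Tyms (0.55 ± 0.14, adjusted p = 0.011). The motor protein Kif2c was called lower (-0.51 ± 0.15, adjusted p = 0.033), where 3.59% of all genes were. A dimmer second probe set of Kif2c had 0.25 ± 0.17, and without rats 2 and 5 of laboratory A, which stood apart from their group, its adjusted p was 0.072. Cyclin D1 too was not called at day 10 when its 3 probe sets were averaged (0.29 ± 0.12, adjusted p = 0.16). Cdk1 at day 10 had 0.898 to 38.4 (median 18.5) in laboratory A and 4.97 to 20.2 (median 9.78) in laboratory B, with a change from control of 0.21 ± 0.17, adjusted p = 0.53. Mki67 had 0.39 ± 0.17, adjusted p = 0.18. Set against day 3 within the fit, 14 members were called lower at day 10, where 1.16% of all genes were, and none was called higher by limma (1 at an unadjusted p under 0.05), where 0.0914% of all genes were. Of the 14, 13 are mitosis genes, led by Cdk1 (-1.40 ± 0.17, adjusted p = 2.3e-06) and Prc1 (-1.13 ± 0.23), and 1 is Mcm2 (-0.53 ± 0.11).

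**Figure D2:**
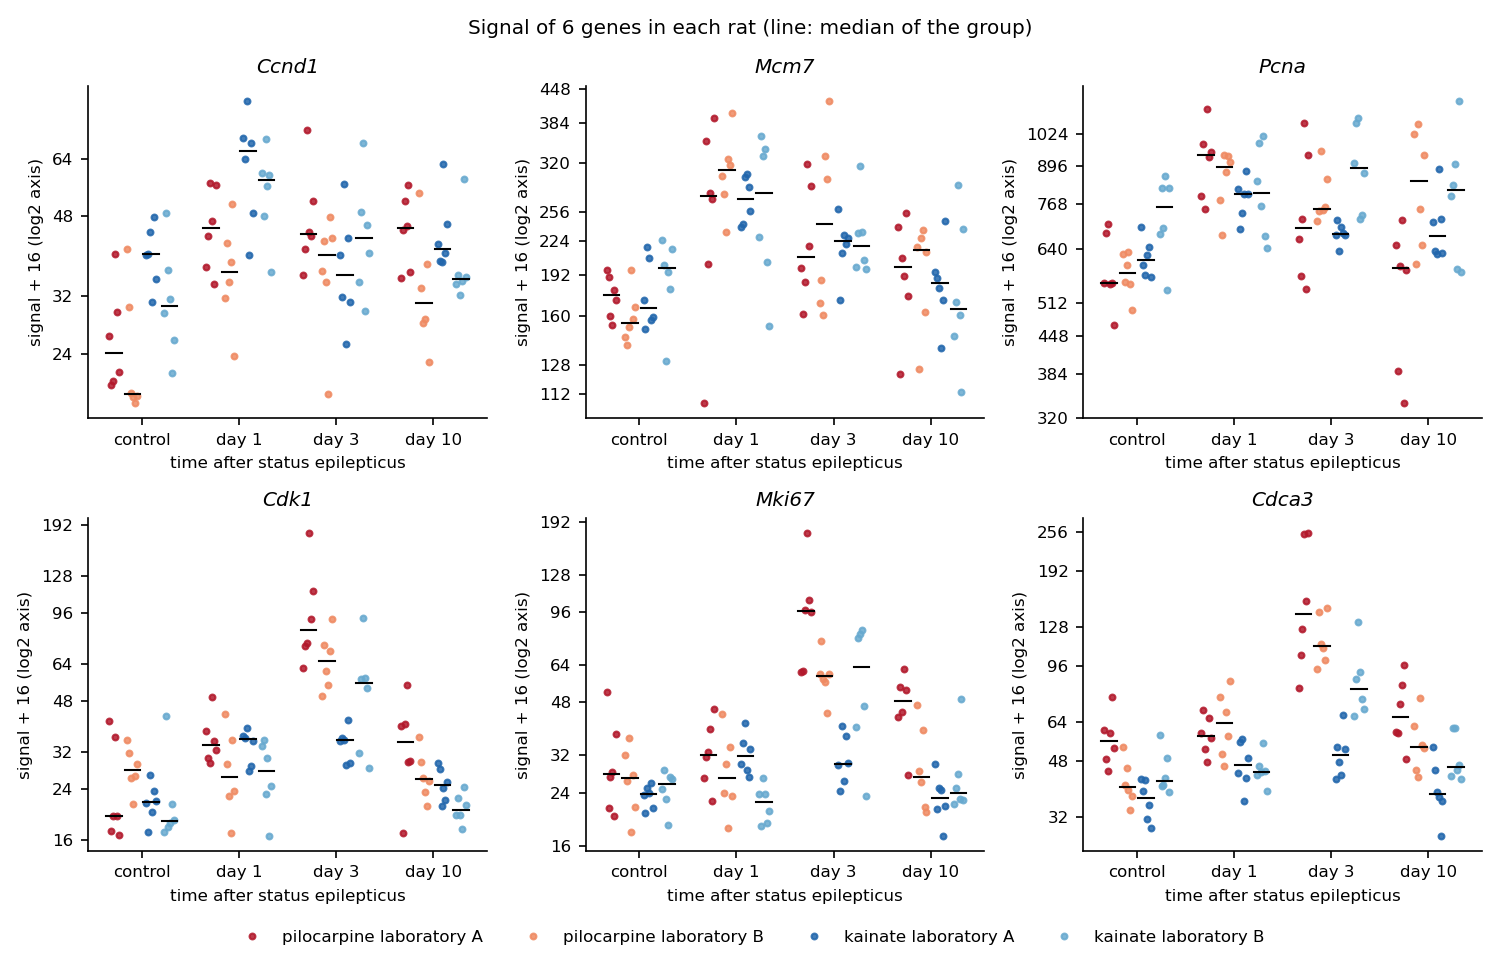
Signal + 16 on a log2 axis in each rat (points, with the median of a group as a line) for 3 replication genes above and 3 mitosis genes below, at control, day 1, day 3 and day 10 of the pilocarpine and kainate models, coloured by laboratory. Pcna at day 1 lies above the controls in all 12 pilocarpine rats, and Cdk1, Mki67 and Cdca3 at day 3 lie above them in all 12 pilocarpine rats.

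After kainate, taken as the mean of both laboratories, replication genes rose at day 1 and mitosis genes at day 3 as well. The laboratories were unlike in the mitosis genes. At an unadjusted p under 0.05, 7 of the 26 were higher at day 1 and 7 at day 3 in laboratory A, against 2 and 12 in laboratory B. At an adjusted p under 0.05 in limma, laboratory A had 3 called higher at day 1 and 0 at day 3. Laboratory B had 1 and 9, so the later rise of mitosis genes was not seen in laboratory A alone. At day 1, 11 of 37 (29.7%) members were called higher, where 17% of all genes were, and 1 was called lower, where 15% of all genes were. Of the 11 replication genes 7 rose and 1 fell, while 4 of the 26 mitosis genes rose, a share of 15.4% that is close to that of all genes. At day 3, 14 of 37 were called higher, 3 replication and 11 mitosis genes, where 3.51% of all genes were. None was called lower by limma, also at an unadjusted p under 0.05, where 2.4% of all genes were called lower. The median log2 change of the members was 0.11 at day 1 and 0.26 at day 3, while that of all genes was 0.00 and 0.01.

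At day 1 after kainate the largest rise was that of cyclin D1. It had 23.4 to 69.5 (median 50.5) in treated rats of laboratory A, against 15.1 to 31.8 (median 23.5) in controls, and 20.1 to 54.6 (median 41.4) in treated rats of laboratory B, against 5.76 to 32.8 (median 14.5) in controls. Of the 12 treated rats 9 lay above their controls, with a log2 change of 0.71 ± 0.14, adjusted p = 7.4e-05. Mcm2 had 26.1 to 53.9 (median 38.4) in treated rats of laboratory A, against 16.8 to 24.03 (median 19.9) in controls, and 32.3 to 49.2 (median 35.8) in treated rats of laboratory B, against 15.7 to 26.9 (median 22.6) in controls. All 12 treated rats lay above their controls (0.56 ± 0.09, adjusted p = 9.6e-07). The helicase subunits Mcm7 and Mcm3 had 0.54 ± 0.13, adjusted p = 0.00081 and 0.50 ± 0.08, adjusted p = 2.7e-06. Tyms (0.40 ± 0.10), cyclin E1 or Ccne1, which acts at the start of DNA copying (0.38 ± 0.11), and Pcna (0.25 ± 0.09, adjusted p = 0.034) were called as well. The gene that fell was the helicase subunit Mcm4. It had 115 to 149 (median 133) in treated rats of laboratory A, against 168 to 259.8 (median 199) in controls, without overlap. Laboratory B gave 157 to 294 (median 181) in treated rats, against 177 to 228 (median 221) in controls, with overlap. Its change was -0.34 ± 0.09, adjusted p = 0.0022. The 4 mitosis genes called higher were Aurka (0.56 ± 0.14, adjusted p = 0.0012), Cdk1 (0.47 ± 0.14, adjusted p = 0.0073), the kinase Melk (0.34 ± 0.13) and cyclin A2 (0.26 ± 0.08). Mki67 (0.15 ± 0.14), Top2a (0.32 ± 0.16) and cyclin B1 (0.03 ± 0.09) were not called over both laboratories. For Mki67 the laboratories went apart. It had 11.04 to 24.9 (median 15.8) in treated rats of laboratory A, against 4.52 to 9.87 (median 7.72) in controls, without overlap. Laboratory B gave 2.59 to 10.8 (median 6.38) in treated rats, against 2.78 to 12.7 (median 9.70) in controls.

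At day 3 after kainate Cdk1 again had the largest change. Its signal was 12.98 to 25.2 (median 19.1) in treated rats of laboratory A, against 1.09 to 10.8 (median 5.64) in controls, and 12.2 to 75.9 (median 39.2) in treated rats of laboratory B, against 0.996 to 26.5 (median 2.52) in controls. The groups of laboratory A did not overlap, those of B did, and the change was 0.93 ± 0.14, adjusted p = 7.1e-06. Mki67 had 8.42 to 23.9 (median 13.98) in treated rats of laboratory A, against 4.52 to 9.87 (median 7.72) in controls. For laboratory B the signals were 7.42 to 67.9 (median 46.8) in treated rats, against 2.78 to 12.7 (median 9.70) in controls. With 10 of 12 treated rats above their controls, the change was 0.76 ± 0.14, adjusted p = 0.00028. Cdca3 lay above its controls in 11 of 12 rats (0.71 ± 0.10, adjusted p = 5.1e-06), and Nusap1 in 9 of 12 (0.62 ± 0.13, adjusted p = 0.00091). Top2a did so in 4 of 12 (0.62 ± 0.16, adjusted p = 0.0098). The other mitosis genes called were Aurka, Ube2c, Cenpf, Ect2, cyclin A2 and Bub1b, at 0.30 for Bub1b to 0.50 for Aurka. Ect2, at an adjusted p of 0.047, was not called under 4 of the alternative settings, and Bub1b and Cenpf were not called with 1 added to the signal (adjusted p = 0.079 and 0.099). Prc1 had 0.57 ± 0.22, adjusted p = 0.13 and cyclin B1 0.05 ± 0.09, and neither was called. The replication genes called were Tyms (0.44 ± 0.10, adjusted p = 0.0026), Mcm2 (0.28 ± 0.09, adjusted p = 0.037) and Mcm3 (0.26 ± 0.08, adjusted p = 0.043). Mcm3 was not called with 64 added (adjusted p = 0.070), in the fit of all groups (0.13) or with the first array only (0.060). Pcna had 0.22 ± 0.09 and cyclin D1 0.18 ± 0.14 and were not called.

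The step from day 1 to day 3 after kainate was uneven between the classes. In all, 10 members (27%) were called higher at day 3 than at day 1, where 11.7% of all genes were. Of these, 8 are mitosis genes, led by Nusap1 (0.64 ± 0.13, adjusted p = 0.00014), Mki67 (0.61 ± 0.14) and Cdca3 (0.51 ± 0.10), and the other two are Mcm6 (0.39 ± 0.11) and Mcm4 (0.32 ± 0.09). Another 4 (10.8%) were called lower, a share close to the 12% of all genes, and all 4 are replication genes. They were cyclin D1 (-0.53 ± 0.14, adjusted p = 0.0039), cyclin E1 (-0.30 ± 0.11), Mcm2 (-0.27 ± 0.09) and Mcm3 (-0.24 ± 0.08). All these steps are means of both laboratories. For Nusap1 and Cdca3 the rise was larger in laboratory B than in A, and Mki67 rose in laboratory B only. Median signals of Mki67 went from 15.8 at day 1 to 13.98 at day 3 in A, and from 6.38 to 46.8 in B. Those of Nusap1 went from 14.96 to 22.2 in A and from 12.3 to 33.5 in B. Those of Cdca3 went from 30.6 to 34.2 in A and from 28.5 to 65.7 in B. Whether the steps differed between the laboratories was not tested. At day 10, 1 member was called higher than control, Tyms (0.42 ± 0.10, adjusted p = 0.0061), where 1.8% of all genes were. None was called lower by limma, also at an unadjusted p under 0.05, where 2.56% of all genes were. At day 10 after kainate 5 mitosis genes were called lower than at day 3, where 0.394% of all genes were, namely Cdk1 (-0.86 ± 0.14, adjusted p = 0.00099), Mki67, Top2a, Nusap1 and Cdca3. None was called higher by limma, also at an unadjusted p under 0.05, where 0.0844% of all genes were.

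**Figure D3:**
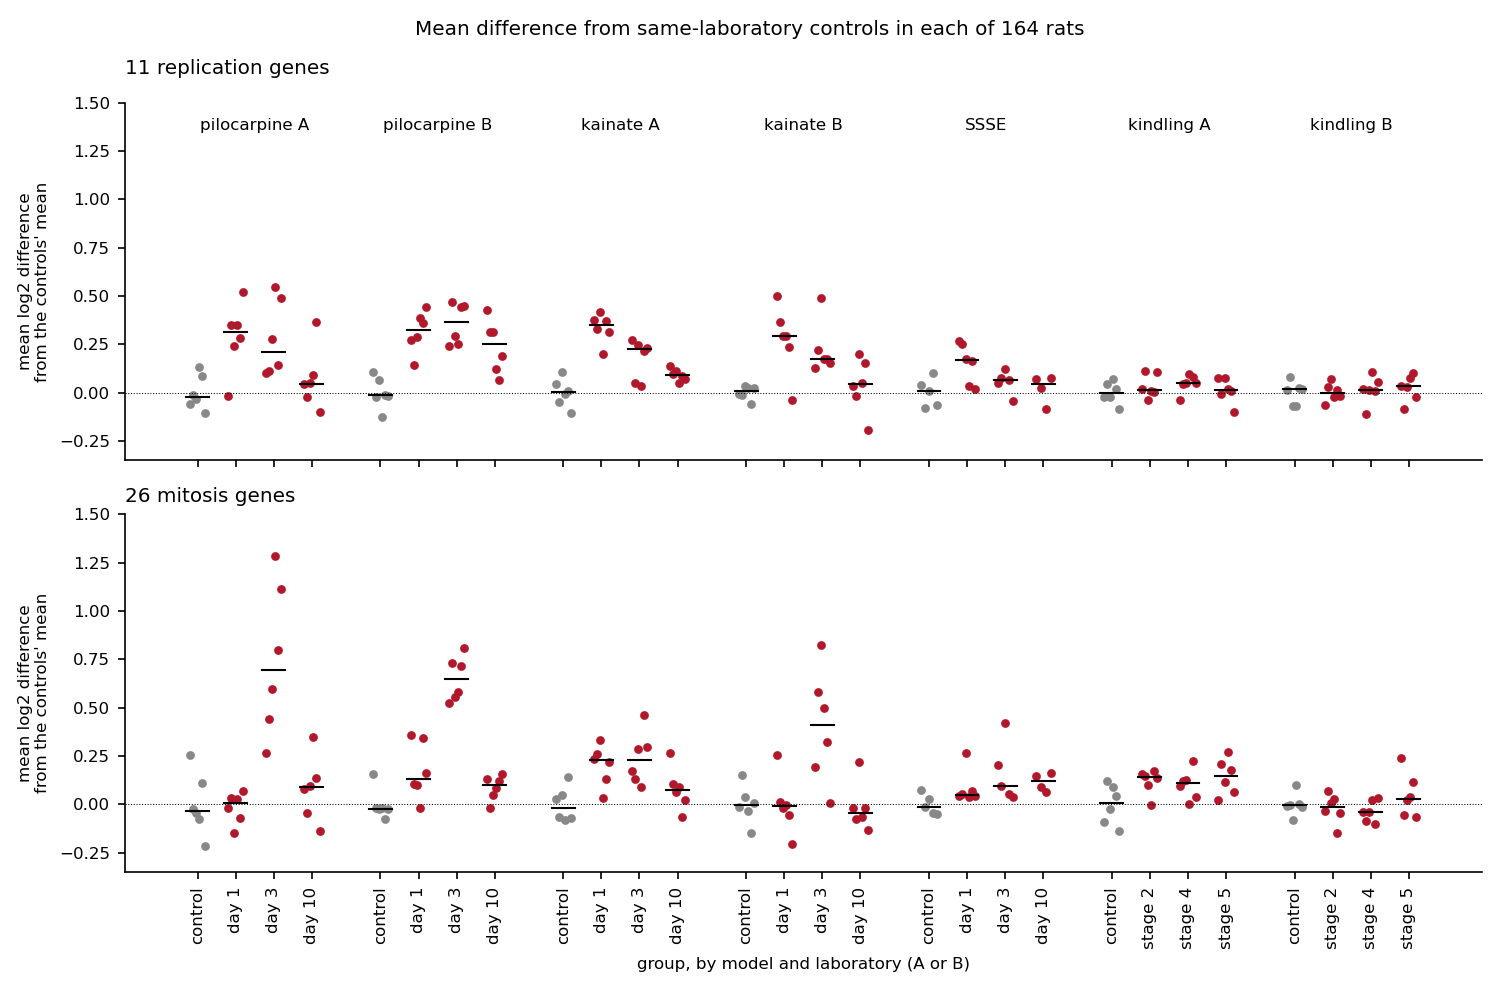
Mean over the 11 replication genes (top) and the 26 mitosis genes (bottom) of each rat's log2 difference from the mean of its laboratory's controls, for all 164 rats by model and laboratory, with the median of each group as a line. The mitosis genes of pilocarpine rats at day 3 lie at 0.26 to 1.28 in laboratory A and 0.52 to 0.81 in laboratory B, above all their controls.

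The classes can be followed rat by rat by the mean difference of their members from the controls of the same laboratory, given without a test. At day 3 after pilocarpine the mean over the 26 mitosis genes was 0.26 to 1.28 (median 0.70) in laboratory A, against -0.21 to 0.25 (median -0.04) in controls. In laboratory B it was 0.52 to 0.81 (median 0.65), against -0.07 to 0.16 (median -0.02) in controls. Neither pair overlapped, and in laboratory A the treated rats differed widely among themselves. At day 1 after pilocarpine the mean over the mitosis genes was -0.15 to 0.07 in laboratory A and -0.02 to 0.36 in laboratory B. On day 3 after kainate the mean was 0.09 to 0.46 (median 0.23) in laboratory A, against -0.08 to 0.14 (median -0.02) in controls, and 0.01 to 0.83 (median 0.41) in laboratory B, against -0.15 to 0.15 (median -0.00) in controls. Both of these pairs overlapped. At day 1 after kainate the mean over the mitosis genes was 0.03 to 0.33 in laboratory A, much as at day 3 there. For laboratory B it was -0.20 to 0.26 at day 1. The 11 replication genes at day 1 after pilocarpine had -0.02 to 0.52 (median 0.31) in laboratory A, against -0.11 to 0.13 (median -0.02) in controls, and 0.14 to 0.44 (median 0.32) in laboratory B, against -0.13 to 0.11 (median -0.01) in controls. At day 1 after kainate they had 0.20 to 0.41 (median 0.35) in laboratory A, against -0.10 to 0.10 (median 0.00) in controls, and -0.04 to 0.50 (median 0.29) in laboratory B, against -0.06 to 0.03 (median 0.01) in controls. The groups overlapped in laboratory A of pilocarpine and laboratory B of kainate, and not in the others.

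The laboratories of a model were compared in the same fit. In each of the 9 comparisons of the models with a pair of laboratories, all called members had the same sign in both laboratories, 6, 24 and 3 after pilocarpine, 12, 14 and 1 after kainate, and 2 at kindling stage 5, with no calls at stages 2 and 4. A call rests on the mean of both laboratories, which favours members of equal sign, so this agreement is no separate test. No member differed between laboratories by limma in any of these 9 comparisons. At an unadjusted p under 0.05, 1 to 5 members differed in each, and of all genes at most 0.0141% were called in either direction. A single laboratory had fewer calls. In pilocarpine at day 3, 16 members were called higher in laboratory A, where 2.88% of all genes were, and 9 in laboratory B, where 1.58% were. On day 3 after kainate 9 were called higher in laboratory B, where SE was stopped (1.96% of all genes). None was in laboratory A, where SE ended by itself, although 10 were higher there at an unadjusted p under 0.05 (0.64% of all genes called). None was called lower by limma at day 3 in laboratories A and B of pilocarpine (1.12% and 0.978% of all genes) or of kainate (0.387% and 1.2%), and 1 was at an unadjusted p under 0.05, in pilocarpine laboratory A. In kainate, the laboratory, the first dose and the length of SE differed together and cannot be told apart. Mki67 at day 3 after kainate had a change of 0.40 ± 0.20 in laboratory A and 1.12 ± 0.20 in laboratory B, and the difference was not called.

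After SSSE no member was called in either direction by limma at any day. Of all genes 4.02% were called higher and 5.03% lower at day 1, 1.16% and 1.06% at day 3, and 0.134% and 0.12% at day 10. At an unadjusted p under 0.05, 9 members were higher and 0 lower at day 1, 11 and 1 at day 3, and 6 and 1 at day 10. Mki67 had 8.20, 9.90, 21.9, 6.69 and 4.56 in the 5 rats of day 3, against 7.92, 2.42, 1.49, 2.78 and 1.09 in the 5 controls, with 3 of the day 3 rats above all controls (0.43 ± 0.14, adjusted p = 0.11). Cdk1 had 11.5, 4.92, 15.6, 7.14 and 4.61 in the day 3 rats, against 1.71, 2.49, 5.06, 2.32 and 2.91 in controls (0.37 ± 0.12, adjusted p = 0.11). Rat 4 of day 3 was the highest in both genes. Pcna at day 1 had 617 to 1058 (median 762) in the 6 treated rats, against 590.4, 635, 716, 704 and 632 in the controls, with 5 of 6 treated rats above them (0.26 ± 0.10, adjusted p = 0.10). Mcm2 at day 1 had 21.3 to 41.3 (median 27.4) in treated rats, against 14.99, 20.5, 22.2, 21.6 and 23.7 in controls (0.33 ± 0.14, adjusted p = 0.14). Cyclin D1 and cyclin B1, not called either, had -0.01 ± 0.20 (Ccnd1) and 0.31 ± 0.10 (Ccnb1) at day 1, and Top2a had 0.37 ± 0.19 at day 3. No member differed between days in this model by limma. Of all genes 0.162% were higher and 0.0985% lower at day 3 than at day 1, and none differed between day 10 and day 3. At an unadjusted p under 0.05, 4 members were higher and 4 lower at day 3 than at day 1, and 1 was lower at day 10 than at day 3. At day 1 of SSSE, 1 member was called higher with a filter on dim probe sets, 1 after quantile normalization and 2 with the first array only, cyclin B1 among them each time (adjusted p = 0.049, 0.041 and 0.030). Without day 1 rat 6, 3 members were called higher. This model had 20 rats against 48 in each of the others, and leaving out single rats gave 0 to 3 calls higher at day 1, with cyclin B1 among those called without control rat 2 (adjusted p = 0.037) or day 1 rat 6 (0.032).

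In kindling no gene of any kind was called at stage 2 or stage 4 (0% in either direction), and at an unadjusted p under 0.05 1 member was higher at stage 2, and 2 were higher and 1 lower at stage 4. At stage 5, 2 members were called higher, where 2.22% of all genes were. Tyms had 19.4 to 36.2 (median 27.4) in kindled rats of laboratory A, against 14.1 to 22.5 (median 19.9) in controls, and 19.98 to 43.3 (median 27.4) in kindled rats of laboratory B, against 11.9 to 22.1 (median 18.3) in controls. Of the 12 kindled rats 10 lay above their controls (0.34 ± 0.07, adjusted p = 0.0041). Top2a had 12.6 to 43.5 (median 23.6) in kindled rats of laboratory A, against 7.27 to 15.3 (median 9.81) in controls. In laboratory B it had 3.61 to 15.1 (median 12.4) in kindled rats, against 3.59 to 11.1 (median 6.26) in controls. Here 9 of 12 lay above their controls (0.45 ± 0.09, adjusted p = 0.0031). Neither was called when all 28 groups shared 1 spread (adjusted p = 0.12 for Tyms and 0.26 for Top2a). A dimmer second probe set of Top2a had -0.04 ± 0.08, and the mean of both was not called (0.20 ± 0.07, adjusted p = 0.086). None was called lower by limma, also at an unadjusted p under 0.05, where 2.74% of all genes were. At stage 5 Cdk1 had 0.24 ± 0.08, adjusted p = 0.071 and Mki67 0.17 ± 0.08, adjusted p = 0.26. Mcm2 had 0.09 ± 0.07, Pcna -0.08 ± 0.07, cyclin B1 0.10 ± 0.07 and cyclin D1 -0.03 ± 0.10. No member differed between successive stages by limma. At an unadjusted p under 0.05, 5 were higher at stage 5 than at stage 4 and none differed between stages 4 and 2, and of all genes 0.00703% were called higher and 0.0141% lower at stage 5 than at stage 4, and 0% in either direction at stage 4 than at stage 2.

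Tyms was the member called at the most comparisons. It was higher at day 3 and day 10 after pilocarpine, at all 3 days after kainate and at kindling stage 5. At day 10 after pilocarpine it had 33.6 to 82.1 (median 38.04) in treated rats of laboratory A, against 15.5 to 49.7 (median 20.95) in controls, and 38.4 to 75.2 (median 46.4) in treated rats of laboratory B, against 22.6 to 32.6 (median 27.8) in controls. In all, 7 of 12 treated rats lay above their controls, 1 in laboratory A and all 6 in laboratory B. At day 10 after kainate it had 21.6 to 41.2 (median 26.9) in treated rats of laboratory A, against 13.4 to 21.8 (median 16.1) in controls, and 25.3 to 79.7 (median 43.3) in treated rats of laboratory B, against 24.8 to 36.7 (median 26.5) in controls, with 9 of 12 above their controls. After SSSE its changes were 0.24 ± 0.12, 0.44 ± 0.12 and 0.36 ± 0.13 at days 1, 3 and 10, none of them called. Cyclin D1 was called at all 3 days after pilocarpine, on its brightest probe set alone, and at day 1 after kainate.

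**Figure D4:**
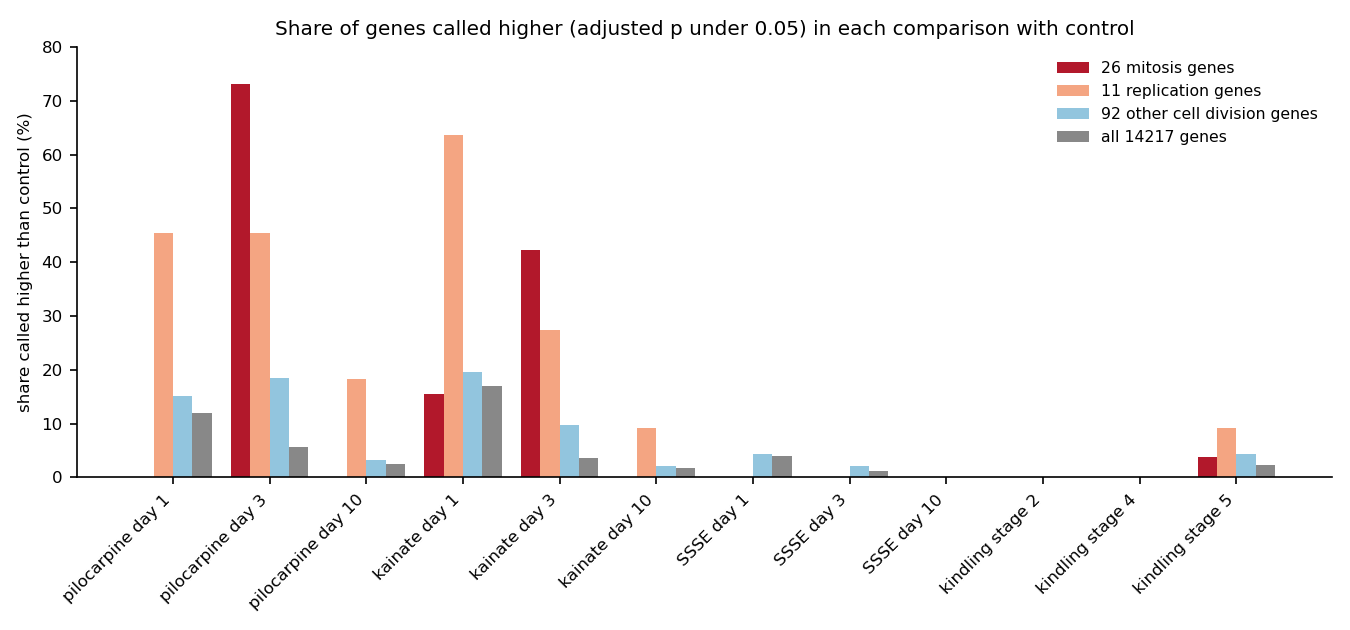
Share of tested genes called higher than control (adjusted p under 0.05 in limma), in percent, for the 26 mitosis genes, the 11 replication genes, 92 other cell division genes and all 14217 genes in the 12 comparisons. At pilocarpine day 3 the shares are 73.1, 45.5, 18.5 and 5.69%, and at kainate day 1 they are 15.4, 63.6, 19.6 and 17%.

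The models of SE were set against each other in a fit of all 28 groups. Each model was run by laboratories of its own. Model, laboratory and protocol thus differed together in these comparisons and cannot be told apart. At day 1 no member was called higher after pilocarpine than after kainate by limma (2 at an unadjusted p under 0.05), where 1.05% of all genes were, and 2 were called lower, where 1.45% were. They were Racgap1 (-0.63 ± 0.17, adjusted p = 0.020) and Mcm3 (-0.53 ± 0.14, adjusted p = 0.026). At day 3, 3 mitosis genes rose more after pilocarpine than after kainate, where 0.183% of all genes did. They were Ccnb2 (0.74 ± 0.15, adjusted p = 0.0078), Cdca3 (0.74 ± 0.16) and Ect2 (0.68 ± 0.15). Against SSSE 2 members rose more after pilocarpine at day 3, where 0.0985% of all genes did, namely Cdk1 (1.24 ± 0.25, adjusted p = 0.0056) and Cdca3 (1.10 ± 0.21, adjusted p = 0.0035). No member differed by limma between pilocarpine and kainate at day 10 (7 at an unadjusted p under 0.05), or between pilocarpine and SSSE at day 1 (6) and day 10 (2). Of all genes 0.155% were higher and 0.169% lower in the first of these, 0.858% and 0.732% in the second, and none in the third. No member differed between kainate and SSSE at any day by limma, where at an unadjusted p under 0.05 3 did at day 1, 4 at day 3 and 0 at day 10. Of all genes 0.288% were called higher and 0.127% lower after kainate than after SSSE at day 1 and 0% at days 3 and 10. The members called after kainate and not after SSSE are thus not shown to differ between these models.

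A second list held 109 other genes of the cell cycle, of which 92 were tested. At day 3 after pilocarpine 17 of the 92 (18.5%) were called higher and 1 (1.09%) lower, where 5.69% and 2.86% of all genes were. The largest rises were those of the mitotic kinase Pbk (1.51 ± 0.21, adjusted p = 1.1e-06), Arhgap11a (1.25 ± 0.20), the securin Pttg1, which holds back the separation of chromosomes (1.08 ± 0.27), the motor Kif22 (1.01 ± 0.17) and the kinetochore protein Nuf2 (0.99 ± 0.15). The gene that fell was Pola1, the catalytic subunit of the polymerase that primes DNA copying (-0.56 ± 0.14). At day 1 after pilocarpine 14 (15.2%) were called higher and 6 (6.52%) lower, where 11.9% and 12.1% of all genes were, led upward by Kif22 (1.48 ± 0.17) and the kinetochore protein Spc25 (1.00 ± 0.18) and downward by Pola1 (-0.95 ± 0.14). The clamp loader subunit Rfc5 (-0.61 ± 0.14) and the helicase activator Cdc45 (-0.40 ± 0.12) were among the 6 that fell, and the flap endonuclease Fen1 was among the 14 that rose (0.59 ± 0.12). At day 1 after kainate 18 (19.6%) were called higher and 8 (8.7%) lower, where 17% and 15% of all genes were, with Kif22 (1.70 ± 0.17) and Spc25 (1.64 ± 0.15) highest and cyclin D2 (Ccnd2) lowest (-0.92 ± 0.21). At day 3 after kainate 9 (9.78%) were called higher, where 3.51% of all genes were, and 1, the condensin subunit Smc2, lower (-0.43 ± 0.11). In SSSE 4 of this list (4.35%) were called higher at day 1, a share close to the 4.02% of all genes, and 1 lower, with Spc25 at 1.27 ± 0.21, adjusted p = 0.0018. At day 3 of SSSE 2 were higher and 2 lower (2.17% each), where 1.16% and 1.06% of all genes were. The median log2 change of the 92 was 0.06 and 0.17 at days 1 and 3 after pilocarpine and 0.10 and 0.13 after kainate.

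Markers of other cells changed as well, and not at day 3 alone. On day 3 after pilocarpine 11 of 18 markers of microglia and macrophages were called higher and none lower, with a median log2 change of 0.88, and 5 of 11 markers of astrocytes were called higher and none lower, where 5.69% of all genes were called higher. The summed signal of the 18 microglia markers was 1865 to 7592 (median 3439.5) in treated rats of laboratory A, against 586 to 1818 (median 859) in controls. In laboratory B it was 1379.7 to 3066 (median 1986) in treated rats, against 567 to 974 (median 666) in controls. These groups did not overlap in either laboratory. At day 1 the sum was 1206 to 2837 (median 1382) in laboratory A and 1167 to 3786 (median 2358) in laboratory B. In B its median was thus higher at day 1 than at day 3. At day 10 it was 1003 to 2376 (median 1403) in A and 991 to 2353 (median 1186) in B, where it still lay above all controls. At day 3 after kainate 12 of the 18 were called higher and none lower, with a median of 0.68, where 3.51% of all genes were called higher. Their sum was 1127 to 1709.6 (median 1541) in treated rats of laboratory A, against 523 to 1662 (median 619) in controls, and 1120.1 to 1957 (median 1825) in treated rats of laboratory B, against 639.5 to 1002 (median 807) in controls. The summed signal of the 11 astrocyte markers at day 3 after pilocarpine was 9866 to 23586 (median 14548) in laboratory A, against 6308 to 13178 (median 6500.5) in controls, and 6526 to 9320.5 (median 8238) in laboratory B, against 5114 to 7222 (median 5820.4) in controls. At day 1 after pilocarpine 8 microglia markers were higher and 1 lower, while 1 astrocyte marker, Gfap, was higher and 6 were lower, where 11.9% of all genes were higher and 12.1% lower. In SSSE 2 of the 18 microglia markers were called higher at day 3, where 1.16% of all genes were.

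Of the 11 granule cell markers, 10 were called lower at day 1 and 5 at day 3 after pilocarpine, 11 and 3 after kainate, and none was called higher. The shares of all genes called lower in these 4 comparisons were 12.1%, 2.86%, 15% and 2.4%. Their summed signal at day 3 was 7651 to 11870.2 (median 8586) in pilocarpine rats of laboratory A, against 11096 to 16376 (median 13988) in controls. Of 7 markers of neural stem and progenitor cells 1, Hopx, was called higher at day 1 and day 3 after pilocarpine (1.33 ± 0.23 at day 3). The summed signal of the 7 at day 3 was 338 to 1099 (median 767) in laboratory A, against 280 to 484 (median 311) in controls. In laboratory B it was 304 to 439 (median 375), against 171 to 348 (median 191) in controls. Both pairs overlapped. Nes, Eomes, Tfap2c and Neurog2, which are used to define stem cells and their progeny, lay above the array median in no control, and none of the 5 oligodendrocyte precursor markers was called in the pilocarpine and kainate comparisons. The summed signal of these 5 at day 3 after pilocarpine was 185 to 1302 (median 619) in laboratory A, against 142 to 1066 (median 257) in controls. In laboratory B it was 192 to 355 (median 269), against 104 to 564 (median 151) in controls, and these pairs overlapped too. What part such cells had in the changes of the members was not tested.

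**Figure D5:**
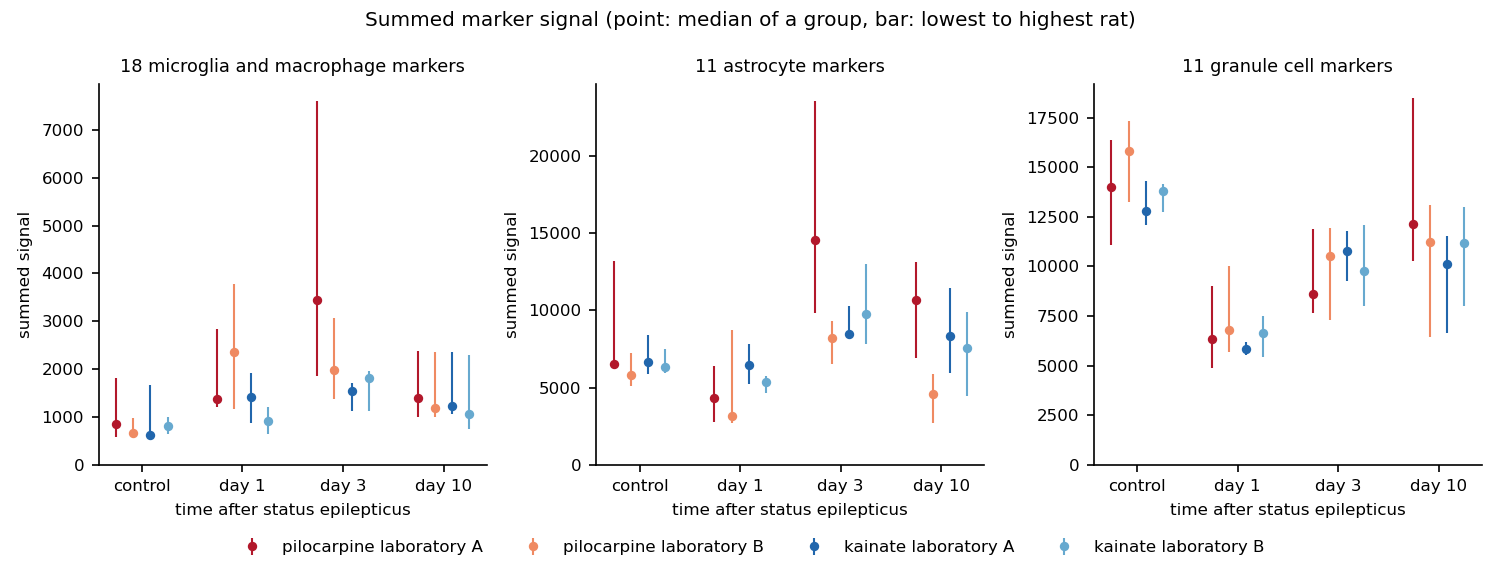
Summed signal of the markers of microglia and macrophages, astrocytes and granule cells in the pilocarpine and kainate models by laboratory, as the median of a group (point) with its lowest and highest rat (bar). On day 3 after pilocarpine the microglia sum lies at 1865 to 7592 in laboratory A, above its controls at 586 to 1818.

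Some members were read by more than 1 probe set, and the brightest was used. At day 3 after pilocarpine a second probe set of cyclin B1 rose alongside the first (0.53 ± 0.12, adjusted p = 0.0032). Dimmer second probe sets did not pass the test for Top2a (0.06 ± 0.15), Nusap1 (-0.03 ± 0.16) and Ttk (0.26 ± 0.14), nor did the other 4 of Cdc20, at -0.32 to 0.22. For Cdc20 the mean of all its probe sets was not called (0.19 ± 0.08, adjusted p = 0.18). At day 1 after kainate all 3 probe sets of cyclin D1 were called higher (0.42 to 0.71). The other two, dimmer than the one used, were not called after pilocarpine, at 0.45 ± 0.20 and 0.29 ± 0.16 at day 1 (adjusted p = 0.11 and 0.21), 0.52 ± 0.20 and 0.30 ± 0.16 at day 3 (0.12 and 0.29), and 0.24 ± 0.20 and 0.01 ± 0.16 at day 10 (0.57 and 0.99).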

How the data were processed

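The authors deposited 1 table of 172 arrays with the linear signal intensity of 31099 probe sets, made with MAS5 per the submitters' processing notes. The array median of the intensity lay between 27.99 and 54.2, and the trimmed mean was 150 on every array. Depth does not apply to arrays, whose number limits the precision. Each value rests on the hybridised RNA of 1 rat, and for 8 rats with 2 arrays the log2 values were averaged.

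Values were log2(signal + 16). Probe sets were named from GEO's platform annotation: 20826 had 1 gene symbol, 436 had several and were not used, and 9780 had none. The 57 control probe sets were left out. For each gene the brightest probe set by its mean over all rats was kept, which gave 14217 genes, without a filter on dim probe sets. limma 3.58.1 (R 4.3.3) fitted 1 mean per group within each model, contrasts were set against the controls of the same laboratory and averaged over laboratories with equal weight, and p-values were adjusted over all 14217 genes by the Benjamini-Hochberg method. Models were compared in 1 fit of all 28 groups. The fits were tested on simulated data. Genes are named by 3 rules: the 5 largest called changes per comparison with the same sign in both laboratories, members that differed between times or models, and Mki67, Cdk1, Top2a, Mcm2, Pcna, Ccnb1 and Ccnd1 in every model. Other members are named to complete a role. The members, lists, roles and tests were chosen with earlier results of these data known. The 11 alternative settings tried are the added constant, a filter on dim probe sets, the mean of a gene's probe sets, quantile normalization, a fit of all groups, the prior variance, the first array of repeated rats, a block on rat number, and leaving out rats. Rat numbers recur in all groups, but the labels do not say that they pair rats. In 80 of 240 pairs of same-numbered rats the correlation of deviations was over 0.1. Of 164 rats, 49 were closest to the same number in another group, where chance gives 27.2, so a link by number is possible. Since the labels give no pairing, the main fits used no block, and the block was tried as an alternative. Promoters were taken from RefSeq, build GRCr8, of which 31 tested members had an entry.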

Additional observations from a re-analysis of the deposited data

Results flagged for a closer look

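In 14 of 252 sets of 4 to 6 rats examined, 1 rat lay far from the others of its group, and chance gives about 1 in 20. All values here are log2(signal + 16). Mki67 was highest in SSSE control rat 1, at 4.58 against 4.095 to 4.231 in the others, and in kainate laboratory B day 10 rat 5, at 5.624 against 4.463 to 4.797. The same kainate rat was highest in cyclin D1, at 5.851 against 5.012 to 5.155. Cdk1 was highest in kainate laboratory B control rat 2, at 5.409 against 4.087 to 4.406, and that control makes the day 3 groups of this laboratory overlap. Mcm2 was highest in pilocarpine laboratory A control rat 5, at 5.9 against 5.251 to 5.464, and in kindling laboratory A stage 2 rat 6, at 5.742 against 5.106 to 5.248. Cyclin B1 was highest in SSSE day 10 rat 6, at 5.618 against 5.39 to 5.422, and lowest in kainate laboratory A day 10 rat 2, at 5.07 against 5.589 to 5.783. Top2a was lowest in kindling laboratory B stage 5 rat 6, at 4.294 against 4.727 to 4.961. Cyclin D1 was lowest in pilocarpine laboratory B day 3 rat 4, at 4.289 against 5.107 to 5.574.

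The mean log2 difference over the replication genes was 0.4875 in kainate laboratory B day 3 rat 3, against 0.1261 to 0.2178 in the others. The mean over the mitosis genes was 0.2666 in SSSE day 1 rat 3, a rat whose labels contradict each other, against 0.04051 to 0.06677 in the other rats of that day. It was 0.2213 in kainate laboratory B day 10 rat 3, against -0.1346 to -0.0207, and 0.1596 in pilocarpine laboratory B control rat 1, against -0.07487 to -0.01687.

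Models, each run by laboratories of its own, and days differed in limma for the following members. Pilocarpine minus kainate was -0.526 ± 0.144 for Mcm3 (adjusted p = 0.026) and -0.633 ± 0.167 for Racgap1 (adjusted p = 0.02) at day 1. At day 3 it was 0.74 ± 0.148 for Ccnb2 (adjusted p = 0.00785), 0.74 ± 0.158 for Cdca3 and 0.678 ± 0.146 for Ect2 (adjusted p = 0.0116 for both). Pilocarpine minus SSSE at day 3 was 1.24 ± 0.245 for Cdk1 (adjusted p = 0.00555) and 1.1 ± 0.206 for Cdca3 (adjusted p = 0.00345). Of the 37 members, 17 were higher at day 3 than at day 1 after pilocarpine and 14 were lower at day 10 than at day 3. After kainate 10 were higher and 4 lower at day 3 than at day 1, and 5 were lower at day 10 than at day 3. Errors are standard errors of the fit.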

How the results depend on the processing

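Over 11 alternative settings no called change of a member turned its direction, and 62 calls of members were examined. The calls kept were 59 with 1 added in place of 16, 61 with 64 added, 58 with the mean of a gene's probe sets, 62 after quantile normalization, 58 in 1 fit of all 28 groups, 61 with a prior variance that follows the mean level, 59 with the first array only, 62 with the replicate block and 61 without the 2 rats that stood apart. The filter on dim probe sets left 50 of the called members and kept all 50. The members higher at pilocarpine day 1 came to 9 in the fit of all groups, against 5. At pilocarpine day 10 they came to 1 with the mean of probe sets and 5 in the fit of all groups, against 2, and members lower came to 0 with the filter and 0 without the rats that stood apart, against 1. The members lower at pilocarpine day 1 came to 2 with the first array only, against 1. At kindling stage 5 the members higher came to 1 with the mean of probe sets and 0 in the fit of all groups, against 2. At SSSE day 1, where 0 were called, they came to 1 with the filter, 1 after quantile normalization, 2 with the first array only and 2 with the replicate block, which moved no other count of members by over 1.5 times. Leaving out 1 rat gave 0 to 3 members higher and 0 to 1 lower at SSSE day 1, and 0 to 2 higher at SSSE day 3. The 3 at day 1 came without day 1 rat 6, and the 2 at day 3 without control rat 1. The cause of these moves was not tested. In the fit of all 28 groups the counts over all genes came to 2634 higher and 2635 lower at pilocarpine day 1 (1685 and 1726 in the fit of 1 model), 1707 and 1200 at day 3 (809 and 407), 1167 and 1499 at day 10 (356 and 510), 109 and 93 at SSSE day 3 (165 and 150), and 38 and 73 at kindling stage 5 (316 and 390). In that fit 305 were higher at SSSE day 1 (572) and 7 lower at SSSE day 10 (17). With the first array only, 756 were lower at pilocarpine day 3 and 859 at day 10. With the replicate block 10 were higher and 8 lower at SSSE day 10 (19 and 17). Leaving out 1 rat gave 305 to 966 higher and 413 to 1153 lower at SSSE day 1, 82 to 223 and 86 to 210 at day 3, and 9 to 25 and 8 to 17 at day 10. No scaling moved the median change of all genes by over 0.1. Of 164 rats, 49 lay closest to the same number in another group, where chance gives 27.2. Many members lay below the array median, where a difference is hard to measure.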
